A study of Mus musculus with 27 samples.

Results

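Nanog, Dppa3, Esrrb, Zfp42, Prdm14 and Lin28a are genes of the established pluripotent state, and their chromatin was followed from fibroblasts through the start of reprogramming to embryonic stem cells (ESC) and to aberrant iPS clones. The members are 6 windows of the mouse mm9 genome: Nanog on chromosome 6 from 122653000 to 122669000, Dppa3 on chromosome 6 from 122572000 to 122585000, Esrrb on chromosome 12 from 87697000 to 87867000, Zfp42 on chromosome 8 from 44376000 to 44397000, Prdm14 on chromosome 1 from 13099000 to 13122000 and Lin28a on chromosome 4 from 133555000 to 133579000. Every deposited peak that overlapped a window by at least 1 bp was taken. This gave 156 of the 234651 peaks of the series, of which 103 were H3K4me3, 47 H3K27me3 and 6 UTX peaks. The Esrrb window held 72 of them, Lin28a 22, Prdm14 19, Zfp42 16, Dppa3 15 and Nanog 12. No gene model of mm9 was used, so a peak is assigned to a window and not to a promoter, exon or intron.

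The series mapped H3K4me3, H3K27me3 and the H3K27 demethylase UTX by chromatin immunoprecipitation and sequencing to ask how Utx acts in reprogramming to pluripotency. All fibroblasts (MEF) were of the V19-OSKM strain, in which doxycycline (dox) switches on the reprogramming factors Oct4, Sox2, Klf4 and c-Myc, and all cells were male by genotype. The fibroblast states were Utx+/Y (wild type, WT) without and with dox and Utx-/Y (knockout, Utx-KO) without and with dox. The pluripotent states were V6.5 ESC, Utx+/Y and Utx-/Y, without dox, and 2 aberrant iPS clones of Utx-/Y V19-OSKM cells, also without dox, which the labels describe as improperly reprogrammed. ESC and fibroblasts therefore differ in strain as well as in cell type. The labels place both in medium with 2i and LIF, and the length of dox treatment was not given in the sources used here. Each state and mark had 1 library, and the iPS state had 1 per clone. No difference between states could be tested, and every contrast below compares libraries. UTX was mapped in WT MEF, WT MEF with dox and WT ESC only.

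H3K4me3 is deposited at the promoters of active and poised genes, and very wide H3K4me3 domains are typical of genes that define a cell type. H3K27me3 is laid down by Polycomb repressive complex 2 and keeps developmental genes silent, and UTX can remove it. Nanog, Esrrb and Prdm14 are transcription factors that hold ESC in the naive state. Zfp42 (Rex1) is a zinc finger protein used as a marker of that state, Dppa3 (Stella) protects DNA methylation in the early embryo and marks germ cells, and Lin28a is an RNA-binding protein that blocks maturation of let-7 microRNAs. In reprogramming such genes are commonly switched on late, after the fibroblast programme has been shut down.

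The sequence before the gene start is shown because the introduced factors bind short DNA motifs, and the members differ in which of these letters they hold. RefSeq promoters (build GRCm38.p6, not the mm9 build of the peaks) matched 4 of the 6 members, Nanog, Esrrb, Zfp42 and Lin28a, and Nanog and Esrrb had 2 starts each. The 250 bases before the first listed start are printed from 5′ to 3′ on the strand of the gene: Nanog at chr6:122707239-122707488 on the plus strand, Zfp42 at chr8:43307010-43307259 on the minus strand, Lin28a at chr4:134018817-134019066 on the minus strand and Esrrb at chr12:86360867-86361116 on the plus strand. Capitals mark matches, on either strand, to an octamer core for Oct4 (ATGCAAAN), a SOX core (ACAATG) or a KLF core (CCNCNCCC). Overlapping matches run together, and runs of G or C also match the KLF core.
Nanog: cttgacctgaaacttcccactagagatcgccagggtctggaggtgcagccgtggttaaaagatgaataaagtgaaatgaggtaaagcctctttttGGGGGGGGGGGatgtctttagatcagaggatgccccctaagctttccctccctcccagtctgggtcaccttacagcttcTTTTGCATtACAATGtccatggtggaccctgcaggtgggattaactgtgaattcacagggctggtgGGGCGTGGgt
Zfp42: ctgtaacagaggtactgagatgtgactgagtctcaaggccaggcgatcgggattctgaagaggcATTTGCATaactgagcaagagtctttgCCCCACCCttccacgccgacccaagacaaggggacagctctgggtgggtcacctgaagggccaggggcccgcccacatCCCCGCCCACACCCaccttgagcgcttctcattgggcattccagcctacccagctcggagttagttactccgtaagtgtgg
Lin28a: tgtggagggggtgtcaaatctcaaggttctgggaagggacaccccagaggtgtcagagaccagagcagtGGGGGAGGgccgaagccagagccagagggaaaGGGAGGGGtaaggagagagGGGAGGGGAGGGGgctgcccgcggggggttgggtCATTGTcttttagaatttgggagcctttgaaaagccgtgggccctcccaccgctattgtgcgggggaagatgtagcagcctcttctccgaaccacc
Esrrb: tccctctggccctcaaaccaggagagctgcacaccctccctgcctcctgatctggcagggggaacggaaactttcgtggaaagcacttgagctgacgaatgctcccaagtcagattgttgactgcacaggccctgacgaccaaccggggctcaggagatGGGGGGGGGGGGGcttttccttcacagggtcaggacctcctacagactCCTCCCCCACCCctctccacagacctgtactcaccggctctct
An octamer match stood 76 bases before the Nanog start, with the SOX core 67 bases before it, and another octamer match stood 186 bases before the Zfp42 start. Lin28a had a SOX match 96 bases before its start and no octamer match, and neither Esrrb start had either. Of all 32851 promoters in the table, 4.12% held the octamer core, 10.7% the SOX core and 45.9% the KLF core, which all 4 genes had. None of these stretches held the E-box CACGTG or the ESRRB core AAGGTCA, found in 6.02% and 4.08% of promoters. CpG dinucleotides numbered 3 for Nanog, 6 for Esrrb, 7 for Lin28a and 9 for Zfp42, against a median of 6. These matches describe letters only.

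The whole series sets the scale. H3K4me3 lists held 16157 to 28232 peaks, H3K27me3 lists 135 to 36231 and UTX lists 372 to 5076. The score is the authors' peak score, with a floor of 50, and it ranks peaks within 1 list only. Many peaks were tied at 3100, which was not a ceiling, since 109 WT ESC H3K4me3 peaks scored higher. A score of at least 3100 was reached by 1071 of 19468 H3K4me3 peaks in WT ESC and 2268 of 20133 in Utx-KO ESC. In iPS clone 1 it was reached by 2083 of 23388 and in iPS clone 2 by 5863 of 28232. Median H3K4me3 widths were 2379 bp in WT MEF with dox and 3063 bp in Utx-KO MEF with dox, against 1118 and 832 bp without dox. Read totals were not used here, so depth was unknown. A weak peak in a cell population can come from few cells with the mark or from little of it in each, and these cannot be told apart.

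In WT ESC all 6 loci carried H3K4me3, with 18 peaks. H3K4me3 was found in 2 windows in WT MEF and in 4 when dox was given. In Utx-KO MEF it was found in 3 windows in either condition, in Utx-KO ESC in 5 and in each iPS clone in 6. Of the 18 WT ESC peaks, 2 had a counterpart in WT MEF and 5 with dox, where 60.4% and 76.2% of all 19468 WT ESC H3K4me3 peaks had one. In Utx-KO fibroblasts 3 had a counterpart without dox and 3 with it, against 61.6% and 71.5%. The covered length summed over the windows was 10.4 kb in WT MEF with dox, and without dox it was 326 bp at Nanog and 1272 bp at Lin28a. In Utx-KO cells it was 2.39 kb without and 5.73 kb with dox. It reached 73.3 kb in WT ESC, 75.7 kb in Utx-KO ESC, 40.6 kb in iPS clone 1 and 73.1 kb in iPS clone 2. Fibroblasts of both genotypes thus lay below the pluripotent states, and clone 1 lay between. The whole H3K4me3 list of clone 1 covered 34.9 Mb, against 43.3 to 55.5 Mb in the other pluripotent lists.

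**Figure D1:**
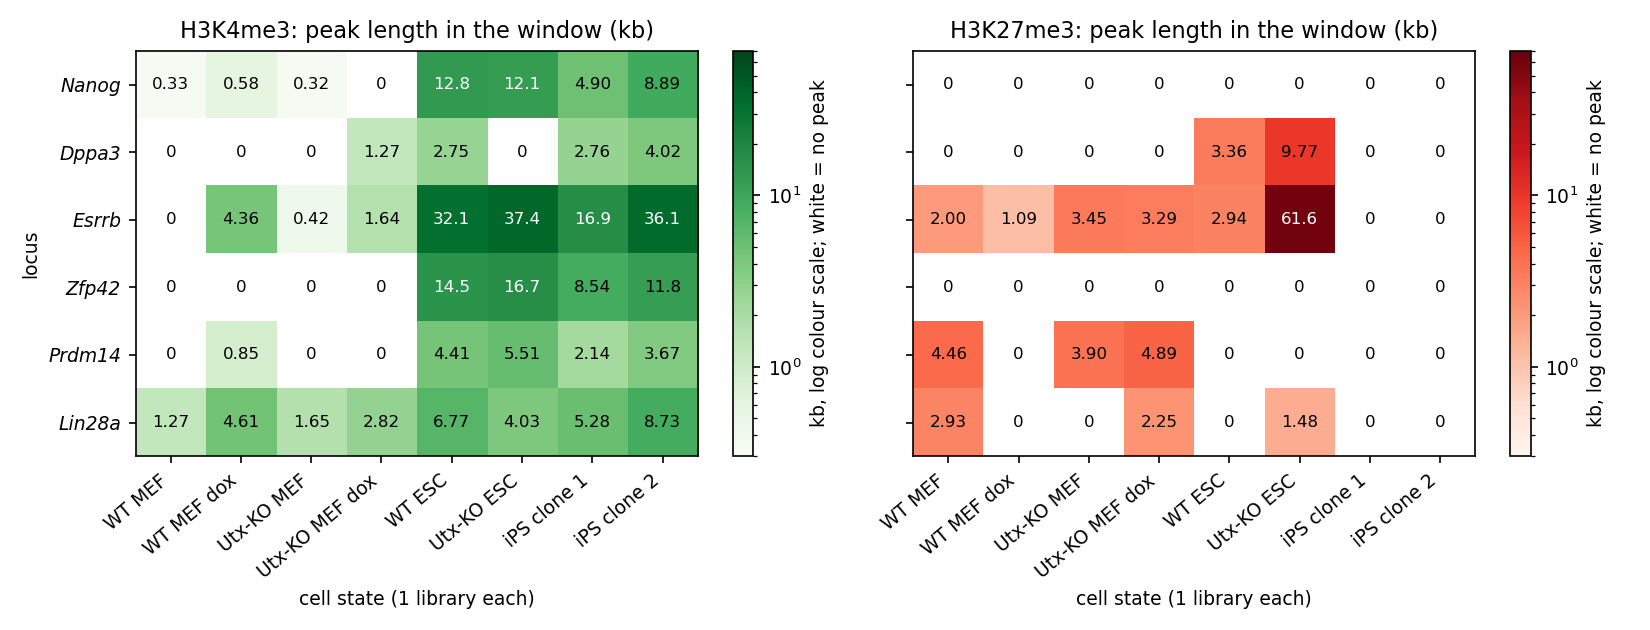
Length of the 6 windows covered by H3K4me3 peaks (left) and H3K27me3 peaks (right) in kb, 1 row per locus and 1 column per library, on a log colour scale with white for no peak. H3K4me3 in the Esrrb window runs from 0 kb in WT MEF to 37.4 kb in Utx-KO ESC, and Nanog and Zfp42 have no H3K27me3 in any column.

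Both H3K4me3 peaks of WT MEF lay inside WT ESC peaks, at sites marked in most or all H3K4me3 lists. The Nanog window is touched at its lower edge by a small H3K4me3 site, at chromosome 6 from 122652743 to 122653325 in WT MEF (score 187) and from 122652773 to 122653318 in Utx-KO MEF (90.7). It was found in 6 of the 8 H3K4me3 lists, and no other region of the genome had the same combination of lists. In the Lin28a window a site at chromosome 4 from 133555061 to 133557935 was marked in all 8 H3K4me3 lists, like 31.7% of all 33646 merged H3K4me3 regions. RefSeq lists Dhdds, an enzyme gene of dolichol synthesis, as the next protein-coding gene on that side, and which gene this site belongs to was not tested. Without these 2 sites, Nanog and Lin28a had no H3K4me3 in untreated fibroblasts. Dppa3, Zfp42 and Prdm14 had none in any case.

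With dox, H3K4me3 was found at some of the loci that had none without it, and at few of their WT ESC sites. In WT fibroblasts, windows that had none without dox and had it with dox were Esrrb and Prdm14, 2 of 4 such windows, and Lin28a joined them when the constant site was left out (3 of 6, after seeing the data). The Prdm14 peak had a score of 60.3, near the floor of 50, and covered 156 bp (3.54%) of the WT ESC peak. With only peaks of a score of at least 100, or with equal list lengths, Esrrb was the 1 window left of the first 2. Over the genome, 34.1% of merged H3K4me3 regions of the WT pair appeared only with dox, 61.8% in both lists and 4.07% only without it, and at these loci the counts were 5, 2 and 0 of 7 regions. In the Utx-KO pair the shares were 18.3%, 76.1% and 5.62%, and the counts 1, 2 and 1 of 4. Counted by WT ESC sites, 16 of the 18 WT ESC peaks of these loci had no counterpart in WT MEF, and 3 of the 16 were met by a peak with dox, 1 each at Esrrb, Prdm14 and Lin28a. The share over all WT ESC H3K4me3 peaks without a WT MEF counterpart was 40.4%. In Utx-KO fibroblasts 1 of 15 such sites was met with dox, at Dppa3, against 26.5% over all. Counted by WT ESC sites, a count added after seeing the data, the members were low beside both shares. Counted by merged regions found only with dox they were not, with 5 of 7 against 34.1% in WT cells. In Utx-KO cells that count was 1 of 4 against 18.3%. Neighbouring peaks of 1 locus are not independent, since 6 of the 16 sites lay in the downstream part of the Esrrb window.

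Nanog, the factor that seals entry into pluripotency, and Zfp42 had no peak in their ESC domain with dox. In WT ESC the main Nanog peak ran on chromosome 6 from 122655745 to 122666891, 11.1 kb at a score of 3100. In Utx-KO ESC it ran from 122654631 to 122665631, 11001 bp, also at 3100. No fibroblast list had a peak in it. With dox the edge site of the Nanog window was present in WT MEF, at a score of 326 and 1612 bp wide, and absent in Utx-KO MEF. Zfp42 had no peak of any kind in the 4 fibroblast states. Its WT ESC domain ran on chromosome 8 from 44380534 to 44393711, 13.2 kb, and its Utx-KO ESC domain from 44380540 to 44392977, 12.4 kb, both at 3100. A relation of the octamer matches printed above to these domains was not tested. The matches come from another build than the peaks, and binding of the introduced factors was not mapped.

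Neither locus carried H3K27me3 in any of the 8 lists, Utx-KO ESC with its 36231 peaks included. An absence of peaks in the short lists, 938 peaks in WT MEF with dox and 135 and 737 in the clones, says little on its own. WT MEF (4760 peaks), Utx-KO MEF (5708), Utx-KO MEF with dox (4335) and WT ESC (5679) were also without a peak there. Lack of H3K4me3 in the ESC domains of Nanog and Zfp42 in fibroblasts was therefore not accompanied by a called H3K27me3 peak.

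**Figure D2:**
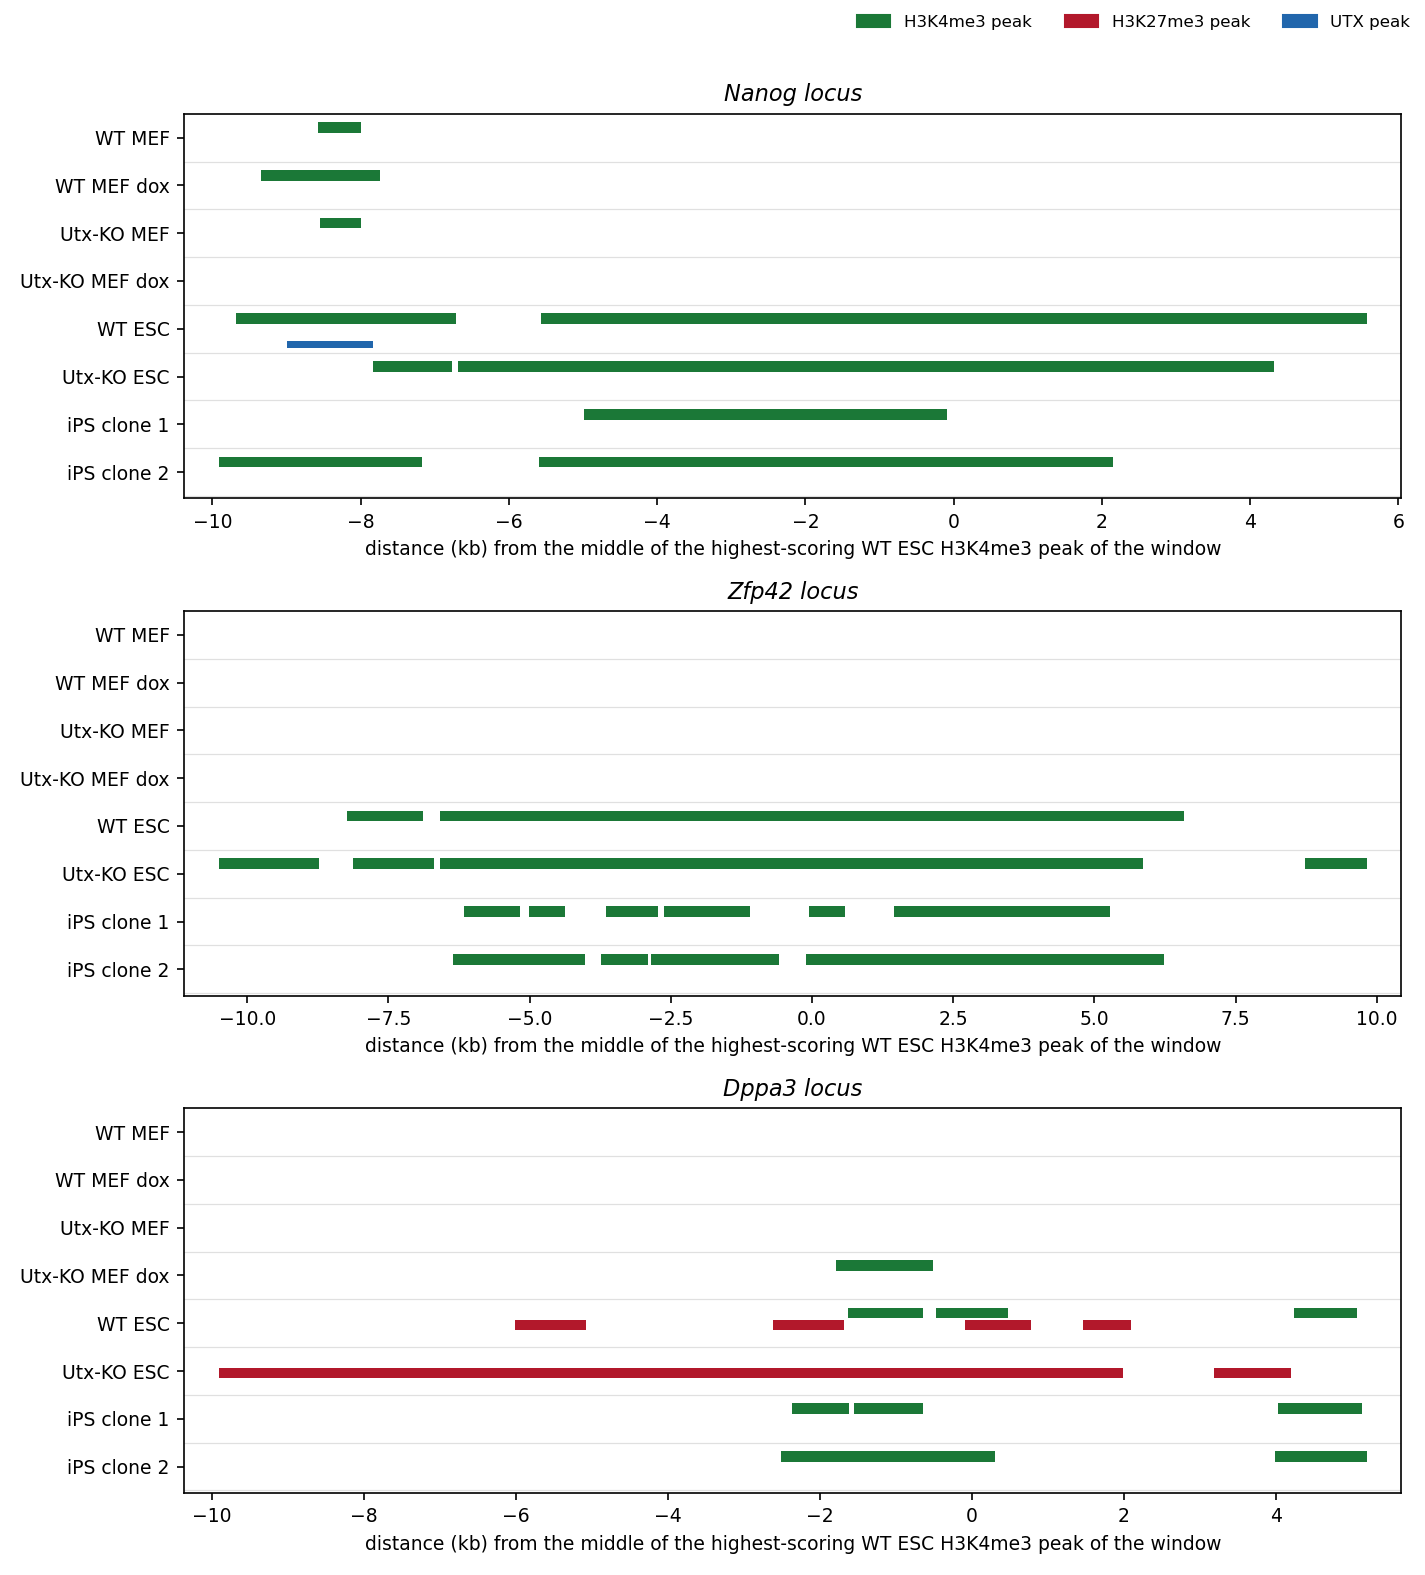
Peaks in the Nanog, Zfp42 and Dppa3 windows, 1 row per cell state, with H3K4me3 in green, H3K27me3 in red and UTX (WT MEF, WT MEF with dox and WT ESC only) in blue, against the distance in kb from the middle of the highest-scoring WT ESC H3K4me3 peak. The wide ESC domains of Nanog (11.1 kb) and Zfp42 (13.2 kb) are empty in all fibroblast rows, and the Utx-KO ESC row of Dppa3 holds H3K27me3 only.

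Esrrb, an orphan nuclear receptor and partner of Nanog, had 3 H3K4me3 peaks in WT MEF with dox and none without, and they lay outside its wide ESC domain. The peaks with dox lay on chromosome 12, from 87761964 to 87764239 (score 439), from 87743094 to 87744362 (56.9) and from 87774013 to 87774825 (77.4). The first of these lay on a WT ESC site, from 87762106 to 87763993 (352), and the others did not. In Utx-KO MEF the same site had a peak of 419 bp (162), and with dox one of 1638 bp (58.5). This site was marked in 7 of the 8 H3K4me3 lists, all but WT MEF.

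The same Esrrb site also carried H3K27me3. In WT MEF the peak was 2002 bp wide (score 498) and in WT MEF with dox 1092 bp (62.2). Both marks overlapped over 1092 bp in WT MEF with dox, 1467 bp in Utx-KO MEF with dox, 1174 bp in WT ESC and 1795 bp in Utx-KO ESC. Utx-KO MEF had only 11 bp with both marks there, and WT MEF and the clones none. Doubly marked sites in a cell population can be 1 chromatin state or a mixture of cells, which cannot be told apart. The H3K27me3 peak of WT MEF was the only one of 8 in these windows met by H3K27me3 with dox, where 4.56% of all WT MEF peaks were met.

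The downstream part of the Esrrb window held the ESC domain, and no fibroblast list had a peak of any kind there. In WT ESC the domain peak ran from 87807410 to 87825702, 18.3 kb at a score of 3100, and only 1 H3K4me3 peak of that list was wider. Another 5 WT ESC peaks followed up to 87849672. In Utx-KO ESC the main peak ran from 87807101 to 87822166, 15.1 kb, and was the widest of its list. In all, H3K4me3 covered 37.4 kb of the window in Utx-KO ESC, against 32.1 kb in WT ESC.

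Utx-KO ESC had a long H3K27me3 array at Esrrb that WT ESC lacked. WT ESC had 2 H3K27me3 peaks in the window, from 87721032 to 87722206 (score 109) and from 87762820 to 87764584 (206). Utx-KO ESC had 15, the leading one from 87753845 to 87767556 (1410), and they covered 61.6 kb against 2.94 kb in WT ESC, 20.9-fold more. The covered length of the whole lists was 12.9-fold more in Utx-KO ESC, and of merged H3K27me3 regions of the ESC pair 87.5% were found only there, 9.25% in both and 3.26% only in WT ESC. In these windows the counts were 15, 3 and 0 of 18, so their share was near that of the genome. The 15 peaks filled 82.8% of the first 74.3 kb of the window and stopped 35.8 kb before the wide H3K4me3 peak. H3K4me3 of the downstream domain thus stood beside the array and not under it. Its main peak was 15.1 kb wide in Utx-KO ESC against 18.3 kb in WT ESC. Utx-KO ESC peaks together covered 99.3% of that WT ESC peak.

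Dppa3, the maternal factor Stella, was the member with the weakest H3K4me3 in WT ESC and the only one without it in Utx-KO ESC. Its 3 WT ESC H3K4me3 peaks, on chromosome 6 from 122577125 to 122578110, from 122578285 to 122579222 and from 122582998 to 122583818, had scores of 61.7, 75.1 and 55.8. Between and around them lay 4 H3K27me3 peaks with scores of 54.8 to 82.1, and 564 bp carried both marks. Utx-KO ESC had no H3K4me3 peak there, and H3K27me3 ran from 122568843 to 122580743, 11.9 kb at a score of 488, with a second peak from 122581934 to 122582954 (65.8). H3K27me3 covered 9.77 kb of the window in Utx-KO ESC, 2.91-fold the 3.36 kb of WT ESC. That was below the 12.9-fold of the whole lists.

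Over all WT ESC H3K4me3 peaks, 87.4% had a counterpart in Utx-KO ESC, and 14 of the 18 peaks of these loci had one. Merged over both ESC lists, 20 regions fell into these windows, with 12 in both, 4 only in WT ESC and 4 only in Utx-KO ESC, against 76.2%, 11.2% and 12.6% of all. The 4 WT ESC peaks without a counterpart were the 3 of Dppa3 and 1 of Lin28a. H3K27me3 met 2 of the 18 WT ESC H3K4me3 peaks in WT ESC itself, against 7.01% over all, and 3 in Utx-KO ESC, against 24.2%. Among WT ESC H3K4me3 peaks without H3K27me3 in WT ESC, 18.7% met H3K27me3 in Utx-KO ESC, and 1 of 16 at these loci did, at Dppa3. The neighbouring Nanog locus had no H3K27me3 in Utx-KO ESC, and its first H3K4me3 peak lay 70.5 kb above the last H3K27me3 peak of Dppa3.

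Both aberrant clones, which also lack Utx, had H3K4me3 and no H3K27me3 peak at Dppa3. Their H3K27me3 lists held only 135 and 737 peaks, so that absence says little on its own. Clone 1 had 3 H3K4me3 peaks, with scores of 166, 385 and 239, and clone 2 had a peak of 2815 bp (559) and one of 1209 bp (86.4). Dppa3 was also the 1 locus where Utx-KO MEF with dox had a new H3K4me3 peak, from 122576968 to 122578234, with a score of 61.6 near the floor, and at a score of at least 100 it was lost. WT MEF with dox had none. Of all 6896 WT ESC H3K4me3 peaks found in neither untreated fibroblast list, 2.23% were met with dox in Utx-KO and not in WT cells, and 15.1% the other way round, while 34.1% were met in WT and 21.2% in Utx-KO cells in all. At these loci the first group had 1 of 15 and the second 2 of 15, at Prdm14 and Lin28a.

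Prdm14, a regulator of naive pluripotency and of germ cell fate, carried H3K27me3 in fibroblasts and H3K4me3 in pluripotent cells. WT MEF had 4 H3K27me3 peaks on chromosome 1 between 13113393 and 13118968, with scores of 118 to 295, and Utx-KO MEF had 3 between 13114781 and 13119343, with scores of 232 to 584. With dox WT cells had no H3K27me3 peak there and a narrow H3K4me3 peak from 13117942 to 13118794 (60.3). Utx-KO cells with dox had 3 H3K27me3 peaks, of 651, 2103 and 2131 bp, and no H3K4me3. Covered H3K27me3 length was 4.46 kb without and 0 kb with dox in WT cells, and 3.90 and 4.89 kb in Utx-KO cells.

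Lin28a, counted at its upper site, also had H3K4me3 with dox in WT cells and H3K27me3 in Utx-KO cells. RefSeq places Lin28a on the minus strand, so its start lies toward the higher coordinates of the window. WT MEF had 3 H3K27me3 peaks on chromosome 4, from 133568199 to 133568983 (298), from 133573088 to 133574411 (230) and from 133575631 to 133576448 (98.0). With dox WT cells had none, and an H3K4me3 peak from 133573048 to 133574979 (284) overlapped the second. Utx-KO MEF had neither mark in this part of the window. With dox Utx-KO cells had H3K27me3 from 133572637 to 133574883 (323), on the place where WT cells had H3K4me3. WT ESC had H3K4me3 there from 133572723 to 133575040 (502).

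The size of the H3K27me3 lists bears on both loci. The WT list with dox held 938 peaks, of which 2.35% scored at least 100, and the Utx-KO list with dox 4335, of which 40.6% did. Over the genome 83.0% of merged H3K27me3 regions of the WT pair were found only without dox, 3.58% in both and 13.5% only with dox. At these loci 7, 1 and 0 of 8 were, so the members did as most regions did. Of the 8 WT MEF H3K27me3 peaks of these loci 3 met H3K4me3 with dox, 1 each at Prdm14, Lin28a and Esrrb, as did 37.9% of all. In the Utx-KO pair 45.0% were found only without dox, 35.3% only with dox and 19.6% in both, and at these loci the counts were 2, 3 and 3 of 8. Between the dox states, 81.6% of merged H3K27me3 regions were specific to the Utx-KO list, 13.2% to the WT list and 5.18% were shared, and at these loci the counts were 5, 0 and 1 of 6. The part of the short WT list in these counts was not tested. For H3K4me3, whose lists were closer in size, 20.8% of merged regions of the dox pair were found only in WT cells and 5 of 8 at these loci, 2 at Esrrb and 1 each at Nanog, Prdm14 and Lin28a. Only in Utx-KO cells were 4.53% and 1 of 8, and in both 74.7% and 2 of 8. Weak peaks enter both sides: the WT-only regions at Esrrb (56.9 and 77.4) and Prdm14 (60.3) and the Utx-KO-only region at Dppa3 (61.6) scored below 100. The WT-only Nanog region was the edge site, marked in both untreated lists. Taken from the WT ESC peaks, H3K27me3 met 4 of 18 in WT MEF and 1 with dox, where 4.95% and 0.801% of all were met. In Utx-KO fibroblasts it met 2 without and 3 with dox, against 4.88% and 8.74%. Of the 8 Utx-KO MEF H3K27me3 peaks of these loci, 6 met H3K27me3 with dox and 3, all at Esrrb, met H3K4me3, against 40.8% and 20.4% over all.

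**Figure D3:**
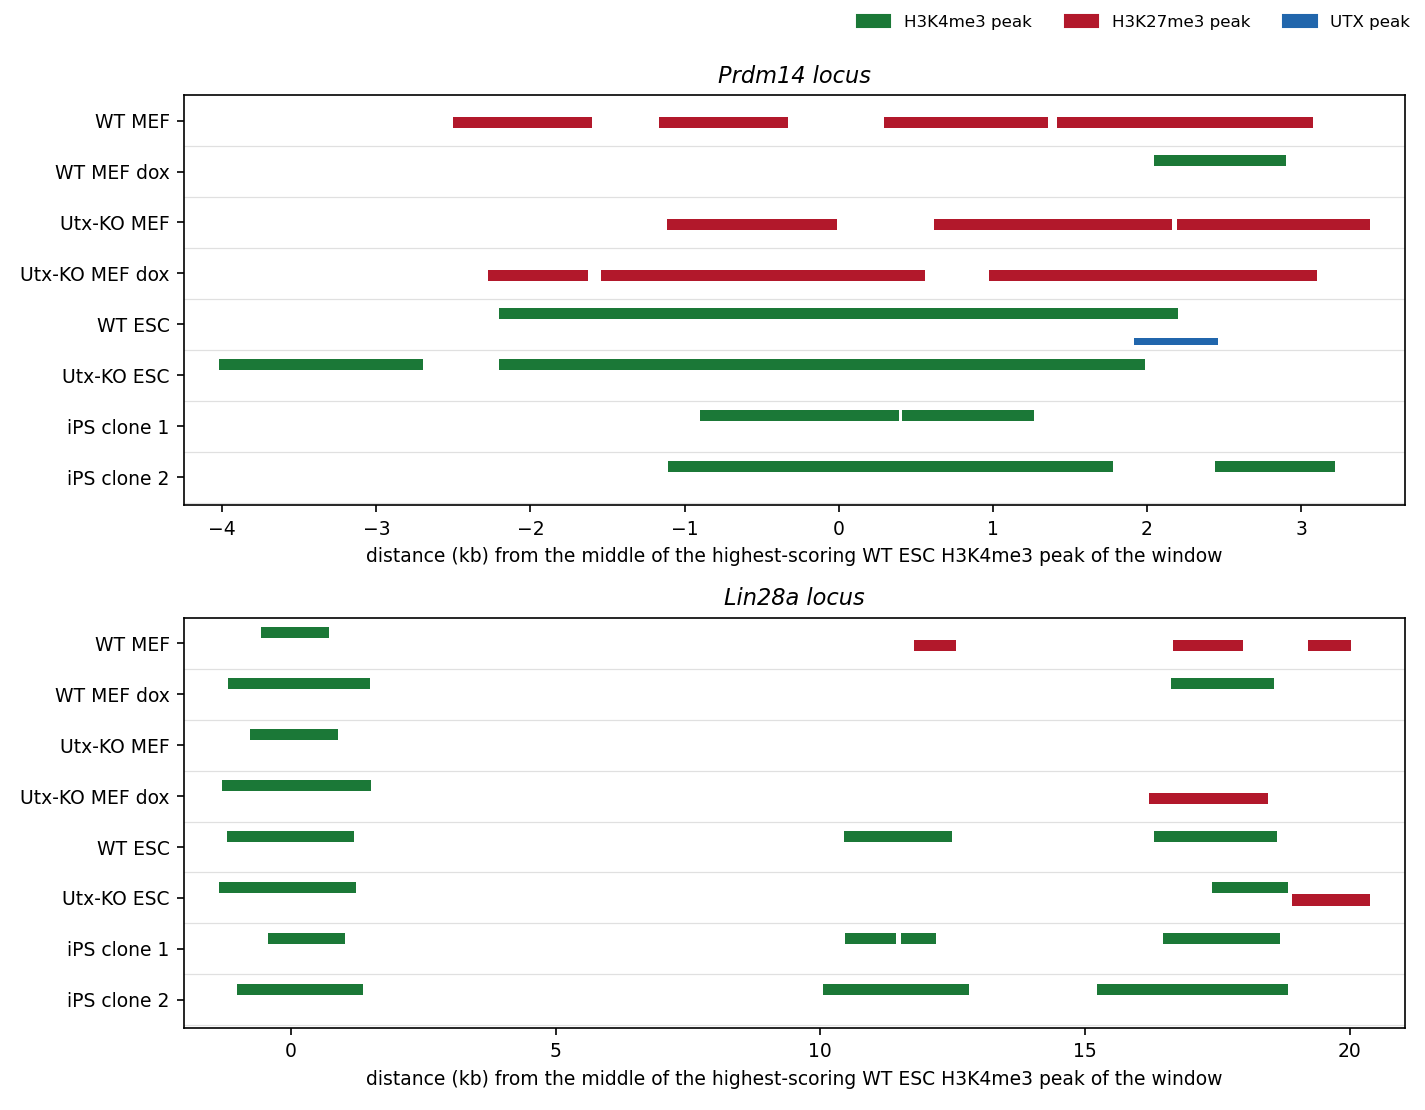
Peaks in the Prdm14 and Lin28a windows, 1 row per cell state, with H3K4me3 in green, H3K27me3 in red and UTX (WT MEF, WT MEF with dox and WT ESC only) in blue, against the distance in kb from the middle of the highest-scoring WT ESC H3K4me3 peak. With dox the WT rows show new H3K4me3 (853 bp at Prdm14, 1932 bp at Lin28a) and the Utx-KO rows show H3K27me3 at the same places.

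In ESC both loci had the active mark with and without Utx. At Prdm14 the WT ESC peak was 4407 bp wide (score 1754) and the Utx-KO ESC peak 4189 bp (3100), and no H3K27me3 was called in either. At the upper Lin28a site the Utx-KO ESC peak was 1436 bp wide (138) and covered 52.8% of the WT ESC peak. A small H3K27me3 peak from 133575325 to 133576806 (87.3) stood next to it in Utx-KO ESC. The middle Lin28a site of WT ESC, from 133566869 to 133568914 (114), had no peak in Utx-KO ESC and had H3K4me3 in both clones.

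The ESC domains of Esrrb, Zfp42 and Nanog were among the widest H3K4me3 peaks of their lists. In WT ESC they ranked 2, 8 and 17 by width of 19468 peaks, and in Utx-KO ESC 1, 7 and 13 of 20133. Prdm14 stood lower, with 93.7% of WT ESC peaks narrower than its own. The upper Lin28a peak was wider than 57.9% of the list and the widest Dppa3 peak than 6.55%. Breadth therefore set the members apart from each other, and the order of the leading 3 was the same with and without Utx.

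**Figure D4:**
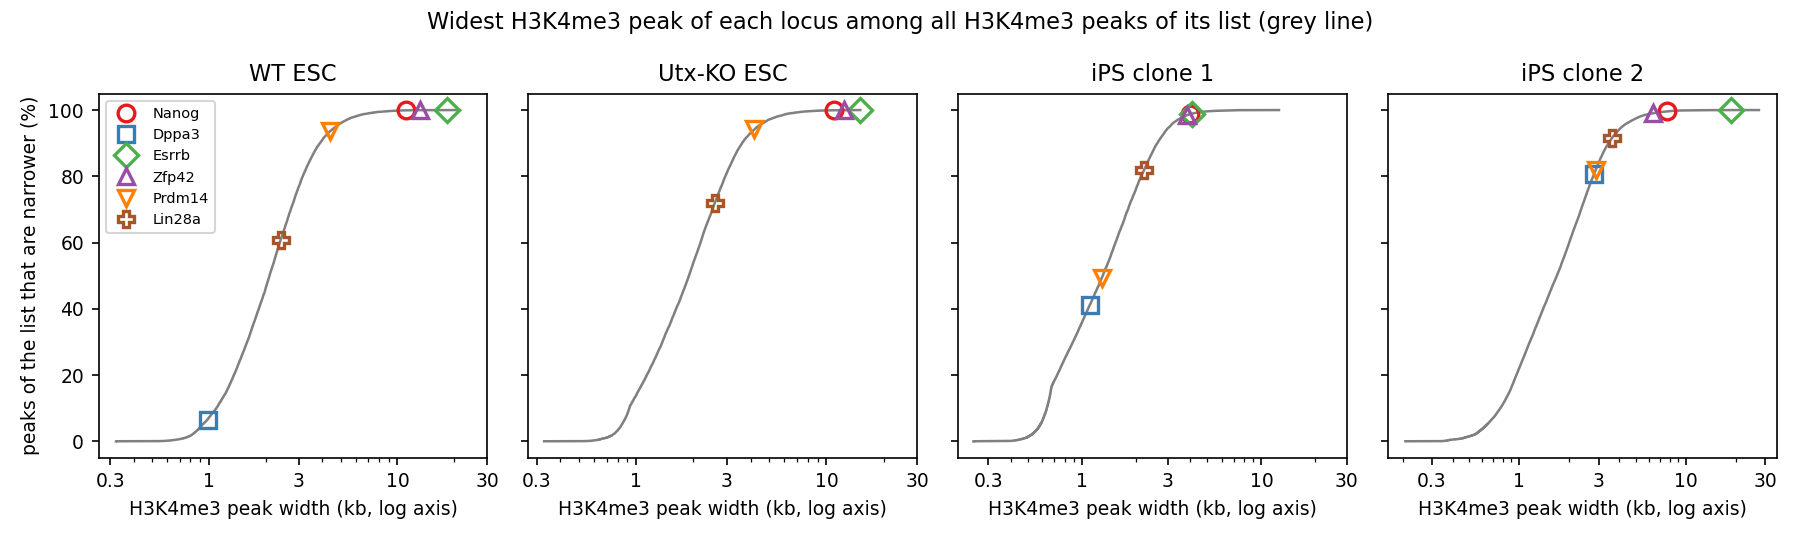
Widest H3K4me3 peak of each locus (symbols) on the cumulative width distribution of all H3K4me3 peaks of the same list (grey line), with width in kb on a log axis and the share of narrower peaks in percent. Esrrb, Zfp42 and Nanog sit at the top of both ESC panels. In the iPS clone 1 panel they are narrower but still wider than 98.9%, 98.4% and 98.8% of that list, with the Nanog peak at 4015 bp. Dppa3 has no peak in Utx-KO ESC. The Lin28a symbol can stand for the site shared by all 8 lists.

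The aberrant clones had H3K4me3 at all 6 loci, with less covered length than WT ESC at Nanog and Zfp42. At Zfp42 the clone peaks were split but spanned most of the WT ESC domain. They ran from 44380958 to 44392404 in clone 1 and from 44380772 to 44393359 in clone 2. Clone 1 met 12 of the 18 WT ESC peaks and clone 2 met 17, where 84.4% and 92.6% of all WT ESC peaks were met. At Nanog the clones covered 4.90 and 8.89 kb of the window (mean 6.89 ± 2.82 kb, SD, n = 2), against 12.8 kb in WT ESC. At Zfp42 they covered 8.54 and 11.8 kb (mean 10.2 ± 2.28 kb, SD, n = 2), against 14.5 kb. At Esrrb they covered 16.9 and 36.1 kb (mean 26.5 ± 13.5 kb, SD, n = 2), against 32.1 kb. Clone 1 was below clone 2 at all 6 loci, and its whole H3K4me3 list covered 34.9 Mb against 55.5 Mb in clone 2. At Esrrb the clones lay on either side of WT ESC.

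Length for length, the clones filled 43.9% and 69.3% of the WT ESC domain peak at Nanog, 64.8% and 89.3% at Zfp42, and 62.5% and 100% at Esrrb. The median over all WT ESC H3K4me3 peaks was 71.4% in clone 1 and 92.2% in clone 2. Over the 17 WT ESC peaks at least as wide as that of Nanog, which include these 3, it was 62.5% and 92.5%. In clone 1 that median is the value of the Esrrb peak itself, so it is no separate yardstick for Esrrb. Peaks were narrower in the lists of the clones in general, with medians of 1304 and 1687 bp against 2099 bp in WT ESC. Nanog lay lowest of the 3 in both clones. Utx-KO ESC filled 88.7%, 94.4% and 99.3% of the Nanog, Zfp42 and Esrrb peaks.

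At Nanog and Zfp42 the strongest clone peaks lay toward 1 end of the WT ESC domain, and at Esrrb the clone 2 peak spanned the whole domain. Nanog is a plus-strand gene in RefSeq, and its clone 1 peaks ended at 122661227 and its clone 2 peak at 122663472, short of the WT ESC end at 122666891. Zfp42 is a minus-strand gene, and its only peak at a score of 3100 lay at the higher end in both clones, from 44388572 to 44392404 in clone 1 and from 44387024 to 44393359 in clone 2. The rest of the WT ESC domain held 5 smaller peaks in clone 1, with scores of 99.7 to 255, and 3 in clone 2, with scores of 60.5 to 202.

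At the other loci the clones had less H3K4me3 than WT ESC at Prdm14, about as much or more at Dppa3, and lay on either side of WT ESC at Lin28a, where the shared site is counted. Prdm14 had 2.14 and 3.67 kb (mean 2.90 ± 1.08 kb, SD, n = 2) against 4.41 kb, with leading scores of 260 and 603. Dppa3 had 2.76 and 4.02 kb (mean 3.39 ± 0.894 kb, SD, n = 2) against 2.75 kb. Lin28a had 5.28 and 8.73 kb (mean 7.01 ± 2.44 kb, SD, n = 2) against 6.77 kb. Its upper site reached a score of 1799 and 3100 in the clones. Neither clone had an H3K27me3 peak in any window or on any of the 18 WT ESC sites, where 0.0514% and 0.108% of all WT ESC H3K4me3 peaks were met. With 135 and 737 peaks in these lists, H3K27me3 below the calling threshold cannot be told apart from none.

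UTX was found at 3 of the 6 loci in WT ESC and at none in WT MEF or WT MEF with dox. The 6 peaks were 1 at Nanog, 4 at Esrrb and 1 at Prdm14. The Prdm14 peak was lost at a score of at least 100, and the Nanog peak when 50% of a peak had to lie inside the window. The Nanog peak, on chromosome 6 from 122652323 to 122653478, had a score of 207, above 96.7% of the list, and lay on the edge site that also carried H3K4me3 in untreated fibroblasts, not on the wide domain. At Esrrb the peaks from 87839363 to 87840382 (158) and from 87842249 to 87843226 (102) lay on H3K4me3 of WT ESC. Those from 87743812 to 87744393 (53.1) and from 87795807 to 87796363 (66.8) did not. The first of these lay on an H3K4me3 site seen only in WT MEF with dox and iPS clone 2, and inside the H3K27me3 array of Utx-KO ESC. The Prdm14 peak, from 13117808 to 13118352 (58.3), lay where fibroblasts had H3K27me3 and where WT MEF with dox had its new H3K4me3 peak. In all, 4 of the 18 WT ESC H3K4me3 peaks of these loci met UTX, against 6.63% over all, and none met it in WT MEF or in WT MEF with dox, against 0.108% and 1.14%. Taken from the UTX side, 4 of 6 peaks met H3K4me3 of WT ESC, against 26.1% of the list.

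Other regions shared these patterns. The domains of Nanog, Zfp42 and Esrrb, marked in both ESC lists and both clones and in no fibroblast list, had the combination of 1463 other merged regions (4.35%). By covered length over the 8 lists (Euclidean distance of log2 values of bp + 1) the nearest to Nanog were on chromosome 14 from 22299249 to 22311370 (distance 0.31) and on chromosome 15 from 102760031 to 102770609 (0.45). The first of these was also among the 2 nearest to Zfp42 and to Esrrb. Prdm14 and the upper Lin28a site shared a combination, the 4 pluripotent lists and WT MEF with dox, with 649 other regions (1.93%). The main Dppa3 site, in WT ESC, both clones and Utx-KO MEF with dox, had only 9 others. This combination rests on weak peaks, with scores of 61.7 and 75.1 in WT ESC and 61.6 in Utx-KO MEF with dox. At a score of at least 100 only the clones kept the mark there.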

How the data were processed

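Of 27 samples, 19 had a peak list (8 H3K4me3, 8 H3K27me3, 3 UTX), and the 8 whole-cell extracts were not analysed here. The authors deposited 1 list per sample with the position and a score for each peak. Tools listed in the submitters' processing notes are MACS 1.4.1, Bowtie 0.12.5 and CASAVA 1.8.2, with the build mm9. Their settings and control libraries are not given in the sources used here. Nothing states the scale of the deposited score, and it can depend on depth, which was unknown. Groups came from the sample titles.

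The 1 mitochondrial peak stayed out of the genome-wide shares. Positions are 1-based mm9. The windows came with the choice of members, and no sample column was left unused. A locus counts as marked with at least 1 bp of overlap. Covered length is the part of the window under peaks. Merged regions join overlapping peaks of the lists compared. Shares over all features stand beside each count in place of a test, because each state had 1 library. The members, windows and lists were chosen with earlier results of these data known. All members are named. A further list of pluripotency genes was not analysed here, for lack of an mm9 annotation. RefSeq sequences and gene order (GRCm38.p6) were used for letters, strands and neighbours only. Alternatives were a score of at least 100, 50% of a peak inside the window, equal list lengths, windows widened by 2500 bp, only peaks on WT ESC H3K4me3, and single clones. Leaving out sites marked in both untreated fibroblast lists, and the count of WT ESC sites met with dox, were added after seeing the data. Overlap code was tested on 5 simulated pairs of lists and against bedtools 2.31.1. Python 3.11.15, numpy 2.4.6, pandas 2.3.3 and matplotlib 3.10.9 were used.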

Additional observations from a re-analysis of the deposited data

Results flagged for a closer look

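Covered length moved in opposite directions with dox in WT and Utx-KO fibroblasts at 3 loci, and none of these differences was tested, since each state had 1 library. H3K27me3 at Prdm14 went from 4462 to 0 bp in WT and from 3904 to 4885 bp in Utx-KO cells, a difference between the changes of 5443 bp. H3K27me3 at Lin28a went from 2927 to 0 bp in WT and from 0 to 2247 bp in Utx-KO cells, a difference of 5174 bp. Beside both stands the short WT list with dox, with 938 peaks against 4335. H3K4me3 at the edge site of the Nanog window went from 326 to 581 bp in WT and from 319 to 0 bp in Utx-KO cells, a difference of -574 bp. These lengths are the parts inside the window, whose edge runs through the site. The whole peaks were 583 and 1612 bp wide in WT cells and 546 bp in Utx-KO MEF, with none in Utx-KO MEF with dox, so the size of the difference depends on the window edge.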

How the results depend on the processing

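Of 53 recomputed counts of loci, sites or locus and list pairs, 46 stayed within 1.5 times the reported value and 7 did not. At a score of at least 100, loci with H3K4me3 only with dox numbered 1 (Esrrb) in WT and 0 in Utx-KO fibroblasts, and no WT ESC site (0) was newly met with dox in Utx-KO cells, since the Prdm14 peak (60.3) and the Dppa3 peak (61.6) lie below that score. With equal list lengths (16157 H3K4me3, 135 H3K27me3 and 372 UTX peaks per list), WT fibroblasts kept 1 such locus (Esrrb), locus and list pairs with H3K27me3 numbered 3 in place of 14 of 48, pairs with UTX 1 in place of 3 of 18, and WT ESC sites newly met in Utx-KO cells 0, because shorter lists hold fewer of these peaks. Leaving out either clone gave 6 loci with H3K4me3 in the remaining clone and 14 pairs with H3K27me3. These results are among the 46 but could not differ, since each clone had H3K4me3 at all 6 loci and neither had H3K27me3 there. Among 120 recomputed numbers of lists per locus, 13 moved by more than 1.5 times. At a score of at least 100 Dppa3 had H3K4me3 only in the clones. Its H3K4me3 difference between the ESC lists was lost there and with equal list lengths. Unknown depth limits every absence, most in the shortest H3K27me3 lists. No paired analysis was possible because each state had 1 library per mark and the numbered clones belong to 1 state.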
